A study of Mus musculus with 16 samples.

Results

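Most of the 26 genes described here encode enzymes of cholesterol synthesis or proteins that control SREBP2, the transcription factor that drives these enzymes. The others serve protein prenylation (Ggps1), receptor breakdown (Mylip), sterol transport (Stard4) or sterol storage as esters (Soat2). The genes were taken from a count table of 53714 genes by matching their gene names, and all 26 were found and had enough reads to be tested. Polyadenylated RNA of whole liver was sequenced from 16 male C57BL/6 mice aged 9 weeks, 4 in each of 4 groups. The groups crossed genotype, Slc25a47hep-/- (hepatocyte knockout, KO) or Slc25a47hep+/+ (WT), with feeding state, chow diet (fed) or an overnight fast (fasted). One strain label, C57BL/6 Slc25a47tm1c(EUCOMM)Hmgu, is given for all 4 groups, so the WT mice share the conditional allele label with the KO mice. The driver of the deletion is not given in the sources used here. Slc25a47 encodes a liver-enriched carrier of the inner mitochondrial membrane.

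Cholesterol is built from acetyl-CoA through mevalonate, prenyl diphosphates and squalene, and the squalene ring product lanosterol is then trimmed and reduced to cholesterol. SREBP2 is made as a membrane protein of the endoplasmic reticulum, where SCAP escorts it to the Golgi for cleavage when sterols are low and the INSIG proteins hold the pair back when sterols are high. In liver the pathway is known to run in the fed state and to fall with fasting.

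Each library held 19.6 to 27.3 M reads assigned to genes. Slc25a47 was at 461 to 836 CPM (reads of a gene scaled to the size of its library) in fed WT, 81.8 to 153 in fed KO, 855 to 1139 in fasted WT and 163 to 331 in fasted KO. The labelled tissue carried its markers: 7 of 8 hepatocyte markers were in the table, none was at 0, and their summed level was 94722 to 137848 CPM over all libraries. Pancreas markers, of which 11 of 14 were at 0 in every fed WT library, summed to 1850 CPM in fasted WT 2, 512 in fasted WT 4 and at most 80.2 in the other libraries. Stellate cell markers, all 8 detected, summed to 322 to 378 CPM in fed WT against 433 to 510 in fed KO, and to 343 to 404 in fasted WT against 445 to 526 in fasted KO. Macrophage and endothelial marker sums overlapped between genotypes. The part of these other cells in the results below was not tested, and results for fasted WT are given with and without its libraries 2 and 4 where that ends a call.

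Levels can be compared between genes only after division by exon length, which is done in this paragraph alone. That length joins all annotated exons of a gene and can exceed the transcript present in liver, so the order between genes is approximate. In fed WT liver the highest mean level of the 26 transcripts was that of Sc5d, a sterol desaturase near the end of the pathway, at 135 ± 20.6 CPM per kilobase (SD, n = 4 livers in each group). Insig2 (116 ± 17.0), Ebp (101 ± 5.21), Insig1 (92.9 ± 11.7) and Hmgcs1 (72.3 ± 10.3 CPM per kilobase) followed, and the ranges of neighbours in this order overlapped from Sc5d to Insig1. In fed WT 2, Insig2 stood above Sc5d. The lowest were Ggps1 (3.03 ± 0.156), Idi1 (3.58 ± 0.515) and Fdps (4.03 ± 0.506 CPM per kilobase). After the fast the order changed: in fasted WT Insig2 led at 204 ± 40.6 and Fdps was last at 0.262 ± 0.137 CPM per kilobase. Soat2 ranked 17 of 26 in fed WT and 4 of 26 in fasted KO, where it stood at 39.98 ± 5.30 CPM per kilobase. The levels of Acat2, which has a close paralog (Acat3), and of Fdps, which has processed pseudogenes and whose exons overlap Gm43738 on the same strand, rest on uniquely placed reads and are uncertain.

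Fasting lowered nearly the whole pathway in both genotypes. In WT, 22 of the 26 genes fell and 2 rose (edgeR quasi-likelihood test, adjusted p under 0.05), whereas 34.5% of all tested genes were called in this comparison and 18.3% of them fell. In KO, 20 fell and 3 rose, against 41.4% of all tested genes called and 20.3% that fell. The median log2 change of the 26 genes was -1.67 in WT and -1.57 in KO, beside -0.019 and -0.0044 over all tested genes. The 4 fed and 4 fasted libraries did not overlap for 24 of the 26 genes in WT and 23 in KO (32.8% and 38.2% of all tested genes). In bulk liver, fewer cells of a type and less RNA per cell cannot be told apart. After the fast 20 genes were lower in both genotypes, 2 were higher in both (Insig2 and Mylip), and 2 were called in neither (Ggps1 and Hsd17b7). Hsd17b7 was called higher in some alternative fits.

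**Figure D1:**
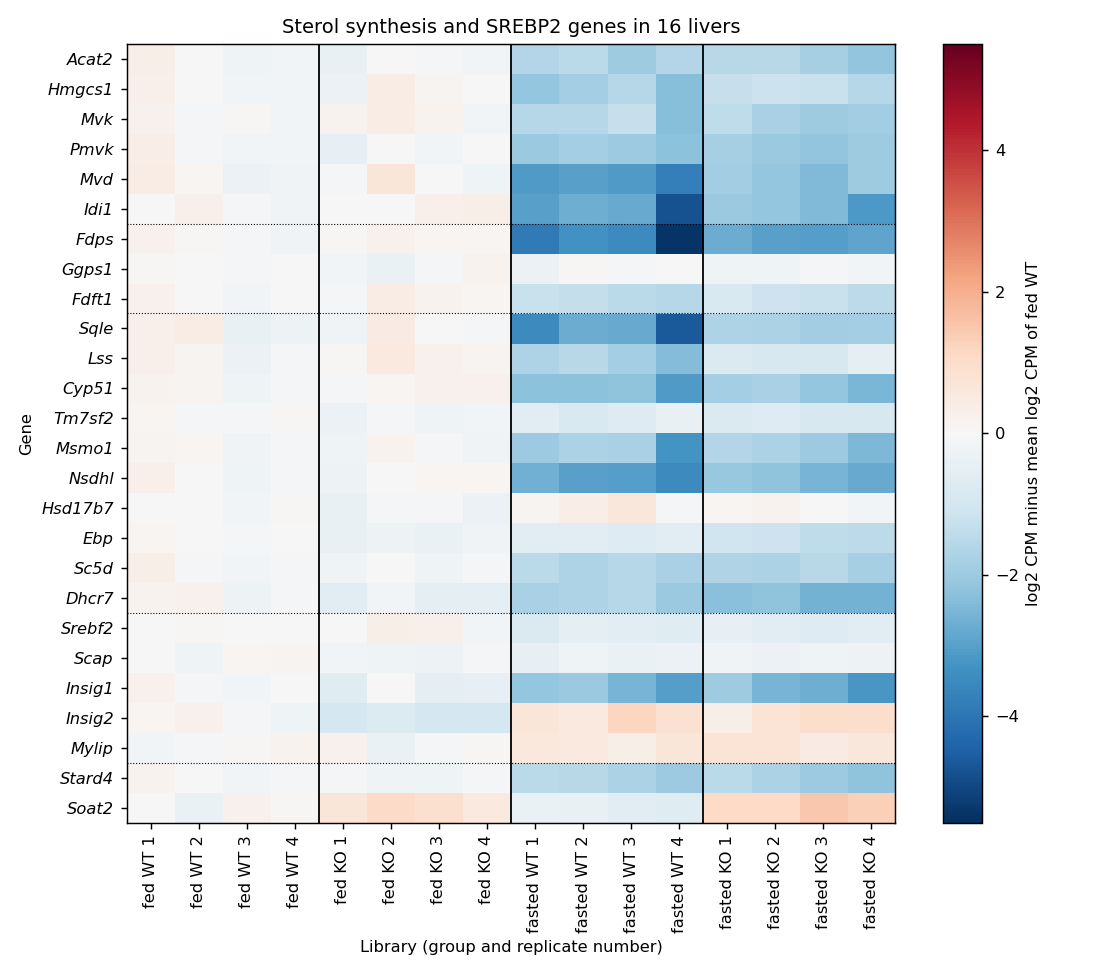
Level of the 26 genes in each of the 16 livers, as log2 CPM minus the mean log2 CPM of the 4 fed WT livers (colour, log2 units; rows are genes by role, columns are livers). The fasted columns are blue for most enzymes in both genotypes, Insig2 and Mylip turn red, and Soat2 is red in all 8 KO livers and pale blue in the 4 fasted WT livers.

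All 6 mevalonate enzyme genes fell in both genotypes. Acat2, the cytosolic thiolase that joins acetyl-CoA units, was at 82.7, 66.5, 55.6 and 59.4 CPM in the fed WT livers and at 21.6, 23.2, 16.8 and 21.6 in the fasted WT livers. Its level in KO was 49.7, 65.7, 60.9 and 58.2 CPM fed and 22.9, 22.4, 18.4 and 14.3 fasted. The fed livers lay above the fasted ones in both genotypes, with log2 changes of -1.67 ± 0.16 (SE; adjusted p = 5.12e-07) and -1.59 ± 0.15 (adjusted p = 9.52e-07). Pmvk, the phosphomevalonate kinase, was at 71.3, 53.4, 50.6 and 49.4 CPM in fed WT and at 13.4, 15.2, 13.8 and 11.4 in fasted WT. In KO it was at 40.9, 54.6, 50.6 and 56.7 CPM fed and 15.5, 13.4, 12.4 and 14.1 fasted, so each genotype again separated fully by feeding state. Its change was -2.06 ± 0.13 in WT (adjusted p = 2e-09) and -1.87 ± 0.13 in KO (adjusted p = 5.34e-09). Mvk, the mevalonate kinase, fell from 15.7 to 20.5 CPM to 3.41 to 7.10 CPM in WT and from 15.8 to 23.3 to 4.47 to 6.55 in KO. Idi1, the isomerase that makes the reactive prenyl unit, fell further, from 10.8 to 15.1 CPM to 0.362 to 1.88 CPM in WT and from 12.1 to 15.8 to 1.32 to 2.98 in KO. These last Idi1 values rest on as few as 7 reads in a library.

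Among the prenyl enzymes, Fdft1 fell and Ggps1 did not. Fdft1, the squalene synthase and the first enzyme committed to sterols, was at 149, 124, 113 and 123 CPM in fed WT and at 54.9, 50.7, 45.6 and 42.7 in fasted WT. In KO its values were 121, 168, 147 and 135 CPM fed and 70.6, 56.9, 54.7 and 46.2 fasted. The log2 change was -1.40 ± 0.13 in WT (adjusted p = 2.03e-07) and -1.32 ± 0.13 in KO (adjusted p = 4.16e-07), and the feeding states did not overlap. Ggps1, whose enzyme makes geranylgeranyl diphosphate for protein prenylation rather than sterols, stayed between 11.1 and 16.5 CPM in all 16 livers, with changes of -0.09 ± 0.11 (adjusted p = 0.558) and -0.10 ± 0.11 (adjusted p = 0.506).

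Of the 10 enzymes from squalene to cholesterol, 9 fell in each genotype. Cyp51, the lanosterol demethylase, was at 244, 236, 181 and 205 CPM in fed WT and at 45.1, 44.9, 46.3 and 24.4 in fasted WT, where library 4 lay below the other 3. In KO it was at 202, 234, 252 and 255 CPM fed and 58.0, 62.3, 49.4 and 37.8 fasted. Its change was -2.43 ± 0.20 in WT (adjusted p = 2.87e-07) and -2.18 ± 0.19 in KO (adjusted p = 8.46e-07). Sc5d, the abundant desaturase, was at 803, 627, 579 and 618 CPM in fed WT and 231, 204, 217 and 186 in fasted WT. The KO livers gave 546, 659.8, 554 and 621 CPM fed and 207, 196, 223 and 186 fasted. The log2 change of Sc5d was -1.65 ± 0.10 in WT (adjusted p = 1.83e-09) and -1.55 ± 0.10 in KO (adjusted p = 3.29e-09). Msmo1, an oxidase of the demethylation steps, changed by -2.09 ± 0.28 and -1.86 ± 0.28. Tm7sf2, a sterol reductase, fell less, by 0.64 ± 0.08 and 0.60 ± 0.08 on the log2 scale. Exons of Tm7sf2 and Vps51 overlap on the same strand, so part of its reads could not be assigned. Hsd17b7, the reductase that follows Nsdhl, was the exception, at 57.5 to 66.1 CPM in fed WT and 60.4 to 97.3 in fasted WT (log2 0.28 ± 0.12, adjusted p = 0.0747). Without fasted WT 4 the Hsd17b7 change was 0.38 and was called higher (adjusted p = 0.0121; range over the alternatives 0.0121 to 0.322). In KO it was at 48.1 to 58.8 CPM fed and 56.7 to 72.9 fasted (0.28 ± 0.12, adjusted p = 0.0656). There it was called higher without fasted WT 3, fasted WT 4 or fasted KO 4 (adjusted p = 0.0265, 0.0339 and 0.0382) and with a replicate block in the model. Over the alternatives its adjusted p in KO ranged from 0.0265 to 0.182.

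**Figure D2:**
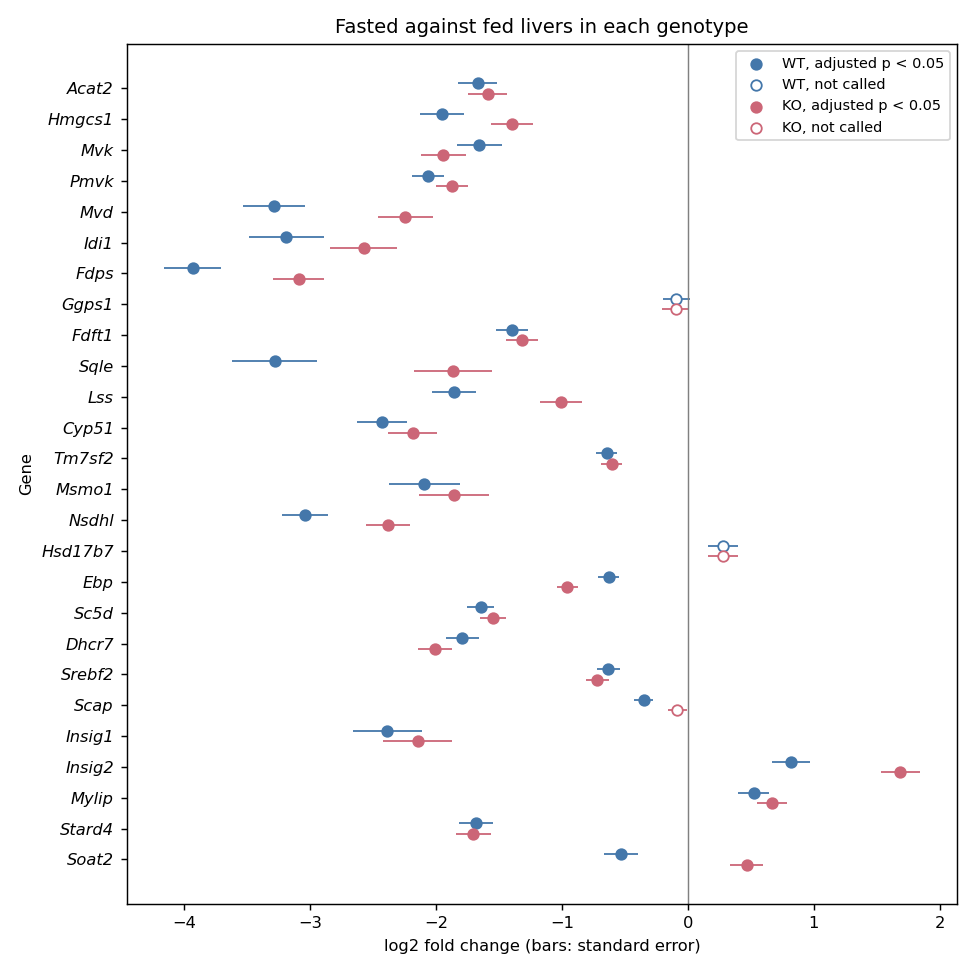
Log2 fold change of fasted against fed livers for each gene, with WT in blue and KO in pink (points; bars are the standard error; filled points have adjusted p under 0.05). Fdps in WT lies lowest at -3.93, Insig2 in KO lies highest at 1.69, and Soat2 has filled points on opposite sides of 0.

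The regulators split by direction. Srebf2, the gene of SREBP2 itself, went from 51.6 to 54.7 CPM to 30.2 to 37.4 CPM in WT and from 47.1 to 65.2 to 32.2 to 37.8 in KO, a fall of 0.63 ± 0.09 and 0.72 ± 0.09 on the log2 scale. Insig1, a feedback gene that is itself a SREBP target, fell more, by 2.39 ± 0.28 in WT (255 to 338 CPM fed, 35.3 to 70.3 fasted) and by 2.15 ± 0.27 in KO (179 to 291 CPM fed, 30.6 to 74.7 fasted). Scap, the escort protein, fell in WT by 0.35 ± 0.08 (adjusted p = 0.00171) and was not called in KO (-0.08 ± 0.08, adjusted p = 0.408). The test of that difference did not pass (0.27 ± 0.11, adjusted p = 0.227). Mylip, which encodes a ubiquitin ligase that marks lipoprotein receptors for breakdown and is known as an LXR target, rose by 0.52 ± 0.12 in WT (12.6 to 16.1 CPM fed, 17.2 to 22.2 fasted) and by 0.67 ± 0.12 in KO (10.7 to 16.3 CPM fed, 18.9 to 23.5 fasted). Stard4, a carrier of free sterol between membranes, was at 136, 122, 109.9 and 117 CPM in fed WT and 42.8, 42.0, 36.4 and 29.9 in fasted WT. In KO it was at 117, 104, 102 and 117 CPM fed and 42.9, 36.1, 30.4 and 25.7 fasted, and feeding states did not overlap. Its fall was 1.68 ± 0.14 in WT (adjusted p = 6.72e-08) and 1.70 ± 0.14 in KO (adjusted p = 7.78e-08) on the log2 scale.

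Because so many of the enzymes moved together, their promoters were searched for 5 short motifs on both strands. RefSeq (GRCm38.p6) gave windows of 250 bases before to 50 bases after the start for 21 of the 26 genes. CCAAT, the NF-Y motif, was in 19 of the 21 (all but Acat2 and Scap), beside 37.4% of all RefSeq promoters and 42.7% of tested genes with a promoter. GGGCGG, the Sp1 motif, was in 19 of 21 (all but Pmvk and Ggps1), beside 35.7% of promoters and 65.8% of tested genes. A core sterol element, CACNCCAC, was in 3 of 21 (Acat2, Hmgcs1 and Insig1), beside 6.24% of promoters and 7.69% of tested genes. Its longer form TCACNCCAC, which contains it, was only in Hmgcs1 of the 21, beside 1.24% of promoters and 1.48% of tested genes. CACGTG, an E-box, was in 5 of 21, beside 7.15% of promoters and 11.6% of tested genes. A gene counted if any of its windows held the motif. Such matches are a description of letters in these windows and not of binding. The 250 bases before the start are printed for 6 genes whose results differ below: 4 enzymes higher in fasted KO (Hmgcs1, Mvd, Lss, Nsdhl), 1 lower in KO (Ebp) and 1 regulator not called between genotypes (Insig1). Capitals mark CCAAT and CACNCCAC or TCACNCCAC on either strand (ATTGG is CCAAT on the other strand), and each sequence runs 5′ to 3′ on the gene's strand. The windows are chr13:119690101-119690350 forward, chr8:122443423-122443672 reverse, chr10:76531355-76531604 forward, chrX:72918271-72918520 forward, chrX:8193513-8193762 reverse and chr5:28071162-28071411 forward, in the order of the lines.
Hmgcs1: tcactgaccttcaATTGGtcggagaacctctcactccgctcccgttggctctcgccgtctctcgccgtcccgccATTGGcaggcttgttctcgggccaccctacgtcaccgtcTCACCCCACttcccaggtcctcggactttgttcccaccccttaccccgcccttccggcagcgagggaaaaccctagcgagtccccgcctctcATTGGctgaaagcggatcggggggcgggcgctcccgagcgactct
Mvd: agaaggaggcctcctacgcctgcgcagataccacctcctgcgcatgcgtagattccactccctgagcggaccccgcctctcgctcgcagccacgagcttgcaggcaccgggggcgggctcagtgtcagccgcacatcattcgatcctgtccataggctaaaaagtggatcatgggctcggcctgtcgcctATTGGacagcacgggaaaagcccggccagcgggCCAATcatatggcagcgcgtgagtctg
Lss: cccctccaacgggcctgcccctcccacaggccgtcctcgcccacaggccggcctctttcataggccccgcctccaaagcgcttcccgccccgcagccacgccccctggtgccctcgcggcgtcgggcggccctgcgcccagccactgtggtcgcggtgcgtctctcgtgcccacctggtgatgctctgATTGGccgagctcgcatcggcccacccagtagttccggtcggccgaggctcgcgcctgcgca
Nsdhl: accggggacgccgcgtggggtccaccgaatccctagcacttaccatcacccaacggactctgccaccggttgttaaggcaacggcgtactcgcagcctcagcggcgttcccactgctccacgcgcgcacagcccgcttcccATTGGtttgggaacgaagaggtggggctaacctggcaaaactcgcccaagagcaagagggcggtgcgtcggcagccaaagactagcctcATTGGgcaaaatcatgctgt
Ebp: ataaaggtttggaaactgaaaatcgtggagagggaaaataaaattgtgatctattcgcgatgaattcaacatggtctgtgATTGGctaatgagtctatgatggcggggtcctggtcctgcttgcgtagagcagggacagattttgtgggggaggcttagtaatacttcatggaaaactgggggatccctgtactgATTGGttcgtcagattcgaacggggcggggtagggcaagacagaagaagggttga
Insig1: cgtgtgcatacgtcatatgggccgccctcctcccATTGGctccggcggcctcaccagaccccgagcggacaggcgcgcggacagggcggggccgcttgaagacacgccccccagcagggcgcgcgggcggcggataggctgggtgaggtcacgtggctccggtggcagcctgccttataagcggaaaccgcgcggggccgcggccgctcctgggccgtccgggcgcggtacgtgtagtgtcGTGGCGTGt

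In Hmgcs1 the sterol element began 137 bases before the start, between the CCAAT matches 176 and 45 bases before it. Mvd and Nsdhl each had a pair of CCAAT matches in the printed stretch, as did Ebp, and Lss and Insig1 had 1. Matches of CCAAT thus occurred in enzymes that were higher in fasted KO, lower in fasted KO and not called alike.

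Several enzyme transcripts were higher in fasted KO than in fasted WT livers. Of the 26 genes, 7 were higher and 2 lower in fasted KO, where 28.3% of all tested genes were called (13.8% higher and 14.5% lower). The count of members called in both directions together is close to that background. By direction it is above the share of all genes for higher and below it for lower. The groups did not overlap for 7 of the 26 (29.5% of all tested genes). The 6 enzymes that were higher (Hmgcs1, Mvd, Fdps, Sqle, Lss and Nsdhl) fell after the fast in both genotypes, and none was called between genotypes when fed with TMM scaling. The median over the 26 genes was 0.06, beside 0.011 over all genes tested.

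Hmgcs1 (ENSMUSG00000093930, chromosome 13, 119690379 to 119708260), the synthase that opens the mevalonate route, was at 76.1, 90.2, 111 and 65.7 CPM in fasted WT and at 137, 147, 143 and 111 in fasted KO. The fed livers held 399, 334, 295 and 301 CPM in WT and 268, 443, 368 and 337 in KO. The highest fasted WT liver and the lowest fasted KO liver both stood at 111 CPM, so the groups just overlapped. The difference was 0.65 ± 0.17 (log2; adjusted p = 0.00876) fasted and 0.09 ± 0.17 (adjusted p = 0.707) fed. Without fasted WT 2 and 4, the fasted difference was 0.52 and no longer called (adjusted p = 0.0733; range over the alternatives 0.000937 to 0.0733). Mvd (ENSMUSG00000006517, chromosome 8, 122433601 to 122443422), the mevalonate diphosphate decarboxylase, was at 2.18, 2.37, 2.14 and 1.34 CPM in fasted WT and at 5.12, 4.29, 3.47 and 4.86 in fasted KO. Fed values were 25.5, 21.0, 15.3 and 16.8 CPM in WT and 17.7, 31.0, 19.1 and 16.1 in KO. Every fasted KO liver lay above every fasted WT liver (1.14 ± 0.26, adjusted p = 0.00373), while the fed groups overlapped (0.10 ± 0.20, adjusted p = 0.744). Fdps (ENSMUSG00000059743, chromosome 3, 89093588 to 89101959), the farnesyl diphosphate synthase, was at 1.06, 1.61, 1.43 and 0.310 CPM in fasted WT and at 2.43, 2.07, 2.005 and 2.18 in fasted KO. When fed it was at 19.7, 17.5, 15.95 and 14.8 CPM in WT and 17.6, 20.1, 18.04 and 18.2 in KO. The fasted groups were apart (0.97 ± 0.26, adjusted p = 0.00867), with fasted WT 4 resting on 6 reads. Without that library the difference was 0.66 (adjusted p = 0.006045; range over the alternatives 0.000135 to 0.0418).

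Sqle (ENSMUSG00000022351, chromosome 15, 59315077 to 59331192), the squalene epoxidase and a rate-limiting step, showed the largest difference among the enzymes. It was at 9.02, 15.1, 15.002 and 4.08 CPM in fasted WT and at 31.7, 30.3, 26.7 and 27.8 in fasted KO, and at 125, 137, 76.6 and 83.0 in fed WT and 88.8, 138, 102 and 95.4 in fed KO. The lowest fasted KO liver thus stood above the highest fasted WT liver, and mean CPM was 2.69-fold higher (1.43 ± 0.33 on the log2 scale, adjusted p = 0.00574). Fed livers gave 0.01 ± 0.30 (adjusted p = 0.981). Lss (ENSMUSG00000033105, chromosome 10, 76531588 to 76557138), which closes the sterol rings, was at 19.5, 21.6, 17.2 and 12.2 CPM in fasted WT and at 36.6, 34.5, 34.3 and 45.2 in fasted KO. Its fed values were 77.0, 70.7, 50.4 and 58.1 CPM in WT and 66.9, 91.7, 74.9 and 69.7 in KO. The difference was 1.09 ± 0.17 fasted (adjusted p = 0.000238), without overlap, and 0.24 ± 0.16 fed (adjusted p = 0.276). With library totals the fed difference of Lss was 0.47 and called (adjusted p = 0.0308). Nsdhl (ENSMUSG00000031349, chromosome X, 72918557 to 72958514), a dehydrogenase of the demethylation steps, was at 20.1, 15.9, 15.4 and 11.0 CPM in fasted WT and at 29.6, 27.4, 21.8 and 18.4 in fasted KO. Fed livers held 156, 126, 108 and 123 CPM in WT and 106, 129, 136 and 136 in KO. The fasted groups overlapped in 1 liver on each side (0.64 ± 0.18, adjusted p = 0.0138), and the call was lost without fasted WT 2 and 4 (0.46, adjusted p = 0.110; range over the alternatives 0.00124 to 0.110). Idi1 differed by a like amount but did not pass (0.75 ± 0.33, adjusted p = 0.0990), and Acat2, Mvk, Pmvk, Fdft1, Cyp51, Msmo1 and Sc5d lay between -0.11 and 0.37 with no call. With library totals, Idi1 (0.93, adjusted p = 0.0279, range 0.0279 to 0.243), Cyp51 (0.55, adjusted p = 0.0261) and Fdft1 (0.42, adjusted p = 0.0101) were called. Idi1 was also called with the DESeq2 Wald test (adjusted p = 0.0312) and in an edgeR fit that left out a library (adjusted p = 0.0363).

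**Figure D3:**
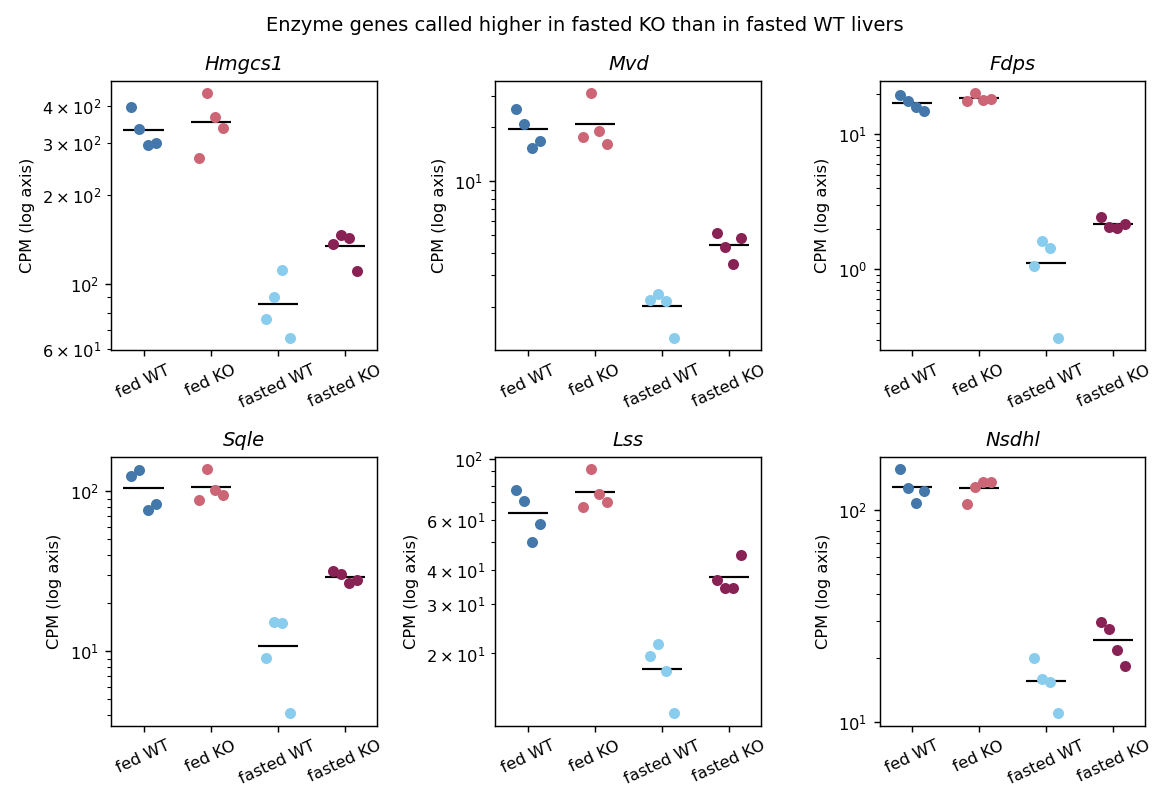
CPM of the 6 enzyme genes called higher in fasted KO than in fasted WT livers (log axis, 1 point per liver, line at the mean of 4). Fed groups overlap in each panel, and fasted KO points lie above fasted WT points except near 111 CPM in Hmgcs1 and around 20 CPM in Nsdhl.

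Late enzymes Ebp and Dhcr7 were lower in KO in both feeding states. Ebp (ENSMUSG00000031168, chromosome X, 8185329 to 8193512), a sterol isomerase, was at 156, 152, 145 and 150.4 CPM in fasted WT and at 109.5, 106, 89.1 and 84.9 in fasted KO. When fed it was at 248, 234, 219 and 233 CPM in WT and 177, 193, 179.9 and 206 in KO. Neither state had overlapping groups, and the differences were -0.63 ± 0.08 fasted (adjusted p = 1.6e-05) and -0.30 ± 0.08 fed (adjusted p = 0.00792). Dhcr7 (ENSMUSG00000058454, chromosome 7, 143823145 to 143848410), the reductase of the last step, was at 32.0, 34.3, 37.1 and 26.7 CPM in fasted WT and at 22.7, 23.7, 18.5 and 18.4 in fasted KO. Its fed values were 128, 129.8, 91.1 and 102 CPM in WT and 75.0, 99.3, 79.8 and 80.2 in KO. The fasted groups were apart (-0.64 ± 0.13, adjusted p = 0.00156) and the fed groups overlapped (-0.43 ± 0.13, adjusted p = 0.0167). With library totals in place of TMM the median difference of all genes was 0.215 fed and 0.198 fasted (-0.0083 and 0.011 with TMM). That scaling ended the fed calls of Ebp (-0.08, adjusted p = 0.363; range 0.00253 to 0.363) and Dhcr7 (-0.21, adjusted p = 0.161; range 0.00459 to 0.161). The fed call of Dhcr7 was also lost without fed WT 1, fed WT 2 or fed KO 1 (adjusted p = 0.0522, 0.0586 and 0.0523).

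In the fed state 1 gene of the 26 was higher in KO (Soat2) and 3 were lower (Ebp, Dhcr7 and Insig2), where 30.9% of all tested genes were called (14% higher and 16.9% lower). Groups did not overlap for 3 of the 26 (28.4% of all tested genes), and the median was -0.05 beside -0.0083 over all genes. None of the 9 mevalonate and prenyl enzymes was called. With library totals 4 were higher (Soat2, Srebf2, Fdft1 and Lss) and 1 lower (Insig2) fed, beside 35.1% higher and 6.58% lower of all tested genes. Fasted, 11 were higher and 2 lower, beside 30.9% and 6.49%.

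**Figure D4:**
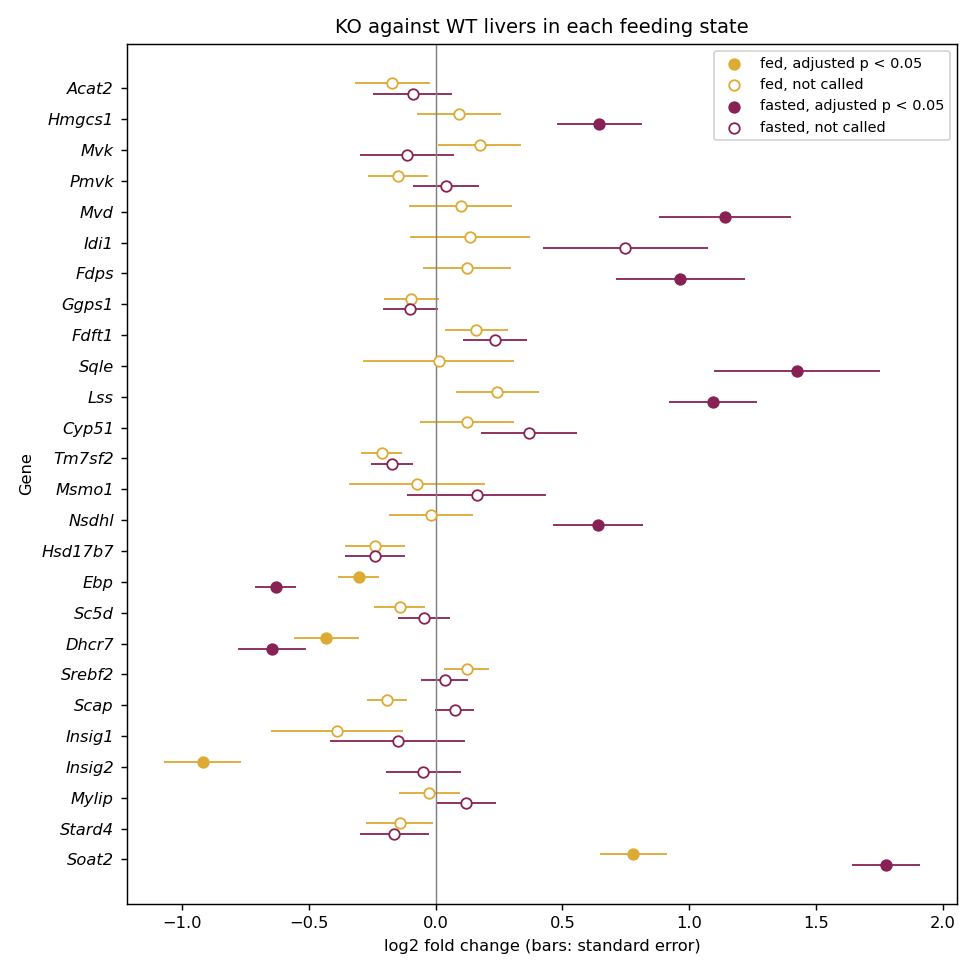
Log2 fold change of KO against WT livers for each gene, fed in gold and fasted in purple (points; bars are the standard error; filled points have adjusted p under 0.05). Sqle, Mvd, Lss, Fdps, Hmgcs1 and Nsdhl have filled purple points right of 0 and open gold points near 0, while Soat2 is filled on the right in both states.

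Soat2 (ENSMUSG00000023045, chromosome 15, 102150526 to 102163469) encodes the sterol acyltransferase that stores cholesterol as esters in hepatocytes. It was at 37.8, 29.0, 43.8 and 38.7 CPM in fed WT, at 58.8, 76.5, 67.9 and 52.9 in fed KO, at 28.4, 27.7, 24.4 and 22.9 in fasted WT and at 79.6, 78.7, 104 and 92.0 in fasted KO. All 8 KO livers lay above all 8 WT livers, and the states did not overlap within a genotype. The genotype difference was 0.78 ± 0.13 fed (adjusted p = 0.000273) and 1.78 ± 0.13 fasted (adjusted p = 9.05e-08), or 1.72-fold and 3.42-fold by mean CPM. With the fast Soat2 fell in WT (-0.53 ± 0.13, adjusted p = 0.00514) and rose in KO (0.47 ± 0.13, adjusted p = 0.00775). The genotype effects differed by 0.99 ± 0.19 between the states (adjusted p = 0.0140), and this call was lost without fasted WT 2 and 4 (0.97, adjusted p = 0.0656; range over the alternatives 0.000136 to 0.0656).

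Insig2 (ENSMUSG00000003721, chromosome 1, 121304353 to 121332589), the INSIG gene known to be induced in fasted liver, went the other way from Insig1. It was at 436, 467, 368 and 339.6 CPM in fed WT, at 205, 238, 202 and 206 in fed KO, at 641, 578, 904 and 710.1 in fasted WT and at 501, 671, 779 and 789 in fasted KO. Fed KO livers were the lowest and did not overlap fed WT, while the fasted groups overlapped in part, with fasted KO 1 the lowest and fasted WT 3 the highest. The genotype difference was -0.92 ± 0.15 fed (adjusted p = 0.000224) and -0.05 ± 0.15 fasted (adjusted p = 0.847). Insig2 rose with the fast by 0.82 ± 0.15 in WT (adjusted p = 0.000428) and by 1.69 ± 0.15 in KO (adjusted p = 2.74e-07). The genotype effects differed by 0.87 ± 0.21 (adjusted p = 0.0447), a call that held in 4 of 16 fits that each left out a library and ranged from 0.0064 to 0.146 in adjusted p over all alternatives. Counts per gene do not separate the transcripts that start at the different RefSeq promoters of Insig2. Insig1 was not called between genotypes, at -0.39 ± 0.26 fed (adjusted p = 0.280) and -0.15 ± 0.27 fasted (adjusted p = 0.722), nor were Srebf2, Scap or Mylip. With library totals Srebf2 was called higher in fed KO (0.35, adjusted p = 0.00738) and Scap in fasted KO (0.26, adjusted p = 0.0205).

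**Figure D5:**
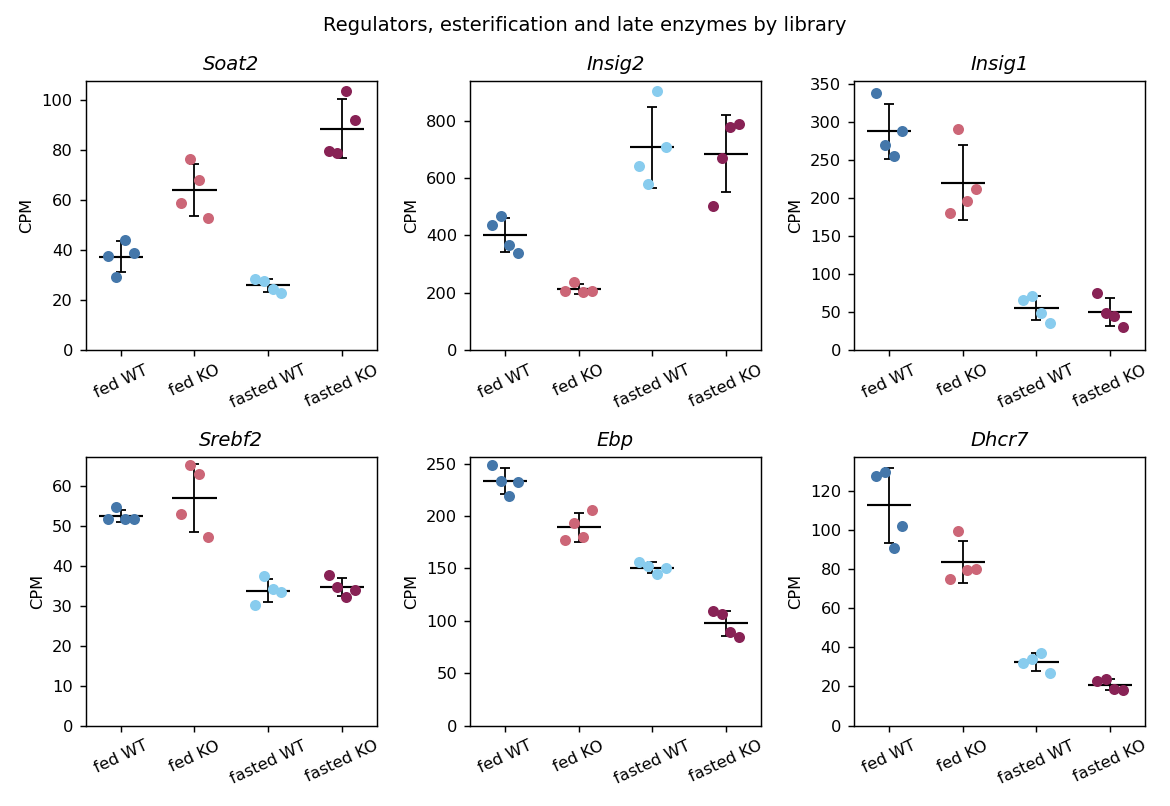
CPM of Soat2, Insig2, Insig1, Srebf2, Ebp and Dhcr7 (linear axis from 0, 1 point per liver, line and bars are mean ± SD of 4). Soat2 is higher in KO in both states, Insig2 is lowest in fed KO at 202 to 238 CPM, and Ebp and Dhcr7 step down from WT to KO within each state.

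Whether the genotype effect differed by feeding state was tested for each gene. Of the 26, 2 passed and both were higher (Soat2 and Insig2), where 1.7% of all tested genes passed and 1.07% were higher. At an unadjusted p under 0.05 there were 10, of which 9 were higher (17.1% of all tested genes, 10.1% higher and 6.99% lower). For the enzymes called higher in fasted KO, the difference between states was 1.41 ± 0.44 in Sqle (adjusted p = 0.134), 1.04 ± 0.33 in Mvd (0.126) and 0.85 ± 0.24 in Lss (0.0844). It was 0.84 ± 0.31 in Fdps (0.178), 0.66 ± 0.24 in Nsdhl (0.187) and 0.55 ± 0.23 in Hmgcs1 (0.243). None of these enzymes passed in edgeR with all libraries. Without fed KO 2, edgeR called Mvd (1.29, adjusted p = 0.0130) and Lss (0.96, adjusted p = 0.0420). The Wald test of DESeq2 called 5 members, adding Mvd, Lss and Fdps (adjusted p = 0.0386, 0.0184 and 0.0390). Within the fasted state, the higher level of Sqle, Mvd, Lss and Fdps was called under every alternative. The fasted calls of Hmgcs1 and Nsdhl were lost without the fasted WT libraries with the highest pancreas marker sums (adjusted p = 0.0733 and 0.110). A difference between the states depended on the library left out or the tool for Mvd and Lss, and on the tool for Fdps. For Sqle, Nsdhl and Hmgcs1 no alternative called that difference (lowest adjusted p = 0.0668, 0.111 and 0.109).

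Within a group the enzymes tended to be high or low in the same liver. Fed WT 1 was the highest of its group for 15 of the 19 enzymes and fed WT 3 the lowest for 14. Fed KO 2 was the highest for 13 and fed KO 1 the lowest for 15. After the fast, WT 4 was the lowest for 15 of 19, KO 1 the highest for 11 and KO 4 the lowest for 12. These ranks were not counted over all tested genes, so a trait of the enzymes cannot be told from one of the whole library. Fasted WT 4 is one of the libraries with pancreas transcripts, and the other, fasted WT 2, was the highest of its group for 9 enzymes.

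Genes around the pathway, taken from lists of proteins that process or turn over SREBP, move sterols, use prenyl groups or share SREBP as a regulator, were counted beside the shares of all tested genes called (30.9% fed and 28.3% fasted between genotypes, 34.5% in WT and 41.4% in KO with the fast). Counts near these shares are no result about a list. Of 10 processing and turnover genes, 5 were higher and 2 lower in fasted KO, and 2 higher and 1 lower in fed KO, the last near the share of all genes. The lower one, Erlin2, kept its call in 5 of 16 fits that each left out a library (-0.17 ± 0.06, adjusted p = 0.0454; range over the alternatives 0.0139 to 0.550). Rnf145, a ubiquitin ligase of the sterol-sensing system, was higher in KO by 0.73 ± 0.12 fed (adjusted p = 0.000248) and by 0.54 ± 0.12 fasted (adjusted p = 0.00286). Erlin1, a scaffold that binds cholesterol and restrains SREBP, was higher by 0.91 ± 0.12 in fasted KO (adjusted p = 1.61e-05), at 59.7, 57.0, 69.9 and 75.1 CPM against 37.3, 39.3, 28.0 and 34.9 in fasted WT. With fasting, 2 rose and 3 fell in WT and 2 rose and 2 fell in KO, which is near the share of all genes.

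Of 12 other sterol transport genes, 4 were higher and none lower in fasted KO, and 2 were higher and none lower in fed KO, beside 28.3% and 30.9% of all genes called. Gramd1c, which encodes an endoplasmic reticulum protein that takes up cholesterol from the plasma membrane, was the furthest apart, at 126, 120.3, 134 and 100.4 CPM in fed KO against 45.2, 44.1, 35.7 and 41.9 in fed WT. After the fast it stood at 109.9, 114, 153 and 149 CPM in KO and 42.1, 39.0, 40.9 and 35.2 in WT. The groups were apart in both states, by 1.53 ± 0.12 fed (adjusted p = 3.1e-08) and 1.74 ± 0.12 fasted (adjusted p = 1.06e-08). Stard5 and Npc1, which carry sterols between membranes and out of lysosomes, were higher in fasted KO by 0.61 ± 0.12 and 0.54 ± 0.15. The call of Npc1 was lost without fasted WT 2 and 4 (0.45, adjusted p = 0.0940) and without fasted KO 4 (0.43, adjusted p = 0.0511). Nceh1, a cholesteryl ester hydrolase, rose with the fast by 0.95 ± 0.07 in WT and 0.94 ± 0.07 in KO, and Osbp, the oxysterol-binding protein, fell by 0.63 ± 0.08 and 0.62 ± 0.08 on the log2 scale.

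Of 8 efflux genes and LXR targets, 2 were higher and 3 lower in fed KO and 1 each in fasted KO, beside 30.9% and 28.3% of all genes called. Lpcat3, a phospholipid-remodelling enzyme and LXR target, was higher in KO by 0.56 ± 0.08 fed (adjusted p = 2.24e-05) and 0.55 ± 0.08 fasted (adjusted p = 3.23e-05). Pltp and Abca1, which serve lipid transfer and cholesterol efflux, were lower in fed KO, with log2 differences of -0.80 ± 0.17 and -0.39 ± 0.13. The Abca1 call was lost with library totals (-0.16, adjusted p = 0.321) and without fed WT 1, fed WT 2, fed KO 3 or fed KO 4 (adjusted p = 0.0530, 0.109, 0.0524 and 0.0861). Of 14 genes that use prenyl groups for dolichol, ubiquinone or protein anchors, 5 fell and none rose with the fast in WT, led by Dhdds (-0.64 ± 0.08) and Pdss2 (-0.53 ± 0.10). In KO 4 of these fell and 1 rose. Between genotypes 3 were lower and none higher fed, and 3 lower and 1 higher fasted, near the shares of all genes. The 3 fed calls (Pcyox1, Zmpste24 and Pggt1b) were lost with library totals (adjusted p = 0.811, 0.842 and 0.372), and each was lost in 3 or 4 of 16 fits that left out a library.

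Of 9 further SREBP targets, 6 fell and none rose with the fast in WT, and 7 fell and 1 rose in KO, where 18.3% and 20.3% of all tested genes fell. Between genotypes 2 were higher and 2 lower fed, and 2 higher and 1 lower fasted. Rdh11, a retinal reductase, fell by 2.497 ± 0.16 and 2.37 ± 0.16, and Acly, which makes cytosolic acetyl-CoA, fell by 2.34 ± 0.17 and 2.20 ± 0.17. Fabp5, a fatty acid binding protein, was lower in fed KO by a log2 difference of -2.32 ± 0.37, at 41.2, 24.9, 25.03 and 26.1 CPM against 231, 183, 86.7 and 83.1. Among 9 lipogenic genes under SREBP1, 8 fell in each genotype and 1 rose in KO, with Fasn at -3.36 ± 0.21 in WT and -2.87 ± 0.20 in KO. In fasted KO 3 of the 9 were higher and none lower, with Acaca at 0.59 ± 0.14 and Fasn at 0.66 ± 0.19, near the 28.3% of all genes called. Fasn lost its call without fasted WT 1 or fasted WT 3 (adjusted p = 0.0568 and 0.0531), and Elovl6 (0.57 ± 0.17) in 4 of 16 fits that left out a library (adjusted p up to 0.0671). Over all alternatives the adjusted p of Elovl6 reached 0.0727. In fed KO 2 were higher and 4 lower, beside 14% higher and 16.9% lower of all tested genes. Acaca was higher, at 0.69 ± 0.13 (adjusted p = 0.000889), and Thrsp lower, at -1.48 ± 0.26 (adjusted p = 0.00104).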

How the data were processed

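Liver RNA of 16 mice was sequenced as stranded polyadenylated libraries, per the labels' protocols. The deposited values are raw counts for each gene, which the authors had not normalized. The submitters' processing notes name GRCm38, HTSeq 0.9.1, STAR 2.5.3a and cutadapt 1.8. Whether HTSeq used strand, and with which annotation release, is not given in the sources used here. For that reason members that share exon positions with an opposite-strand gene (Cyp51, Fdft1, Ggps1, Hmgcs1, Idi1, Lss and Scap) may have lost reads there as ambiguous. If the other gene was missing from the annotation used, their counts may include that gene's reads. The 5 summary lines that name no gene were left out: alignments to several places made up 32.0% to 45.8% of a library's counts, ambiguous reads 1.05% to 1.65% and reads outside genes 2.98% to 4.29%. The share of alignments to several places was 40.4% to 45.8% in WT libraries and 32.0% to 39.3% in KO libraries, without overlap. Its part in the genotype differences was not tested. Gene totals were 19.6 to 27.3 M per library. Positions and exon lengths came from the reference annotation (GRCm38), which held 53619 of the 53714 identifiers.

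Groups came from the labels. Nothing says how cages or extraction days were shared, so p-values measure the spread between these livers. Genes with low counts were removed with filterByExpr (13905 kept). TMM set the scaling, with factors between 0.903 and 0.966 for WT libraries and between 1.00 and 1.141 for KO libraries. One model held the 16 libraries, fitted by the edgeR 4.0.16 quasi-likelihood method with the robust option. It gave 5 contrasts: both genotype differences, both fasting differences and the difference of the genotype effects. Adjusted p is by Benjamini-Hochberg over all genes tested, with calls under 0.05; the SE was taken as the size of the log2 fold change over the root of F. CPM used the TMM factors, and folds given as such are ratios of mean CPM. The common biological coefficient of variation was 0.138. On simulated counts (13407 genes, fed comparison) the fit found 43 of 67 genes set to a 1.5-fold change, 65 of 67 set to 2-fold and 66 of 66 set to 4-fold, and made 14 false calls. Promoter windows are from RefSeq.

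All 26 members are described; those called between genotypes or in the difference of effects, and the 6 others with the smallest p in fasted against fed WT, are given in every library. From each surrounding list up to 3 called genes with the smallest p per contrast could be named. The members and lists were chosen with earlier results of these data known. Alternatives were DESeq2 size factors, library totals, the Wald test of DESeq2 1.42.0, keeping all genes with a count, a fit without the robust option, a replicate block, leaving out libraries one at a time, fasted WT 2 and 4 left out, only the libraries compared, and adjusted p under 0.01.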

Additional observations from a re-analysis of the deposited data

Results flagged for a closer look

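Among 104 sets of 4 livers (26 genes in 4 groups), 4 held a liver whose distance to the next one was larger than Dixon's 95% limit allows, and chance gives about 1 in 20. Cyp51 was 24.4 CPM in fasted WT 4, below the other 3. Hsd17b7 was 57.5 CPM in fed WT 3, the lowest of its group. Insig2 was 238 CPM in fed KO 2 and Srebf2 was 54.7 CPM in fed WT 2, each the highest of its group.

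The genotype effect differed between fasted and fed livers in edgeR's test for 4 of the genes described. The differences were 0.99 for Soat2 (adjusted p = 0.0140) and 0.87 for Insig2 (adjusted p = 0.0447) on the log2 scale. Outside the 26 genes they were 0.66 for Erlin1 (adjusted p = 0.0447) and 2.78 for Fabp5 (adjusted p = 0.0289). Of 16 fits that each left out a library, the call of Erlin1 held in 2 (adjusted p up to 0.0928) and that of Fabp5 in 10 (up to 0.0703). In Fabp5 the fed WT livers were at 83.1 to 231 CPM and no other liver was above 41.2 CPM.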

How the results depend on the processing

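All 24 fasting calls in WT, all 23 in KO, the fed calls of Soat2 and Insig2, and the fasted calls of Soat2, Sqle, Lss, Mvd, Fdps, Ebp and Dhcr7 were made under each of the 25 alternatives. Among the other calls, library totals gave 4 members higher and 1 lower fed, and 11 higher fasted. For the difference of the genotype effects (2 members higher), 1 was called with DESeq2 size factors, library totals, no filter on low counts or the replicate block, 5 with the DESeq2 Wald test, and 0 without fasted WT 2 and 4 or at adjusted p under 0.01. Leaving out 1 library gave 1 to 4, the 4 (Insig2, Mvd, Soat2 and Lss) without fed KO 2; with 1 library fewer, fewer samples enter each fit, and otherwise the cause was not tested.

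Signs were followed for calls of members and of named surrounding genes, and for a chosen set of uncalled member differences. The other differences were not followed. Among those followed, signs turned only for differences near 0 that were not called, apart from Pcyox1, Erlin2 and Zmpste24. Fed, with library totals, these were 0.020, 0.053 and 0.018, and Nsdhl was 0.20. Nsdhl was also 0.0048 with the replicate block and 0.00043 with only the libraries compared, and Sqle was -0.0036 with no filter. Fasted, with library totals, Insig2 was 0.15 and Insig1 0.025. Leaving out 1 library moved the fed differences of Mvd from -0.15 to 0.24, Sqle from -0.14 to 0.16, Nsdhl from -0.095 to 0.086 and Hmgcs1 from -0.034 to 0.21, the fasted ones of Insig2 from -0.13 to 0.091, Srebf2 from -0.032 to 0.088 and Insig1 from -0.44 to 0.025, and the fasting change of Ggps1 in KO from -0.17 to 0.016.

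Same-numbered libraries correlated at -0.174 to 0.251 in 24 pairs, 3 over 0.1, so the numbers were taken as names. With the replicate block the members called were 1 higher and 3 lower fed, 7 and 2 fasted, 2 and 22 for the fast in WT and 4 and 20 in KO. Over all genes, library totals called 4886 higher and 915 lower fed (1948 and 2351 with TMM) and 4301 and 902 fasted (1918 and 2011). The difference of effects called 149 and 88 in edgeR, 285 and 245 in the DESeq2 Wald test, 39 and 33 without fasted WT 2 and 4, and 16 and 7 at adjusted p under 0.01. Fdps, Idi1 and Mvd in fasted WT rest on few reads (6, 7 and 26 in the lowest library), which limits their precision.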
